A study of Mus musculus with 2 samples.

Results

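Genes of the unfolded protein response (UPR), of the integrated stress response and of protein entry into the endoplasmic reticulum (ER) were followed in a pair of sorted CD4+ T cell populations. Members were the 36 genes of a list of sensors, transcription factors, stress targets, ER folding enzymes, ER-associated degradation (ERAD) factors and translocation subunits, found by symbol among the 41592 Ensembl genes of an RNA-seq table. All 36 were found, each in 1 row, and all 36 had a mean level of at least 1 FPKM (fragments scaled to gene length and library size), as did 12820 genes in all. The libraries were the Thy1.1-negative YFP+ and the Thy1.1-positive YFP+ cells, 1 library each. The mice were of the genotype Foxp3 ΔCNS1-Cre-R26-YFP on C57BL/6, were 6 to 8 weeks old, and gave spleen and lymph node cells for both sorts. In such mice Cre is driven by Foxp3 regulatory DNA without the conserved noncoding element CNS1, and YFP at the Rosa26 locus marks cells that have expressed Cre, and their descendants. The title of the study sets thymus-derived regulatory T (Treg) cells against precursors of exFoxp3 cells. Since its design gives the same marker pair for both, the populations are named by the markers in the sample titles. Whether animals were pooled is not stated. With 1 library per population there is no replicate check, no test and no p-value. Differences are in log2(FPKM + 1), Thy1.1-negative minus Thy1.1-positive, and a gene was counted as 2-fold higher at 1 or above and as 2-fold lower at -1 or below.

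The ER is where secreted and membrane proteins are threaded through the Sec61 channel, folded, joined by disulphide bonds and checked. When unfolded proteins build up, the membrane sensors IRE1, PERK and ATF6 start the UPR. IRE1 removes a short intron from Xbp1 mRNA, PERK phosphorylates eIF2α and thereby favours translation of ATF4, and ATF6 is cut to free a transcription factor. Their targets include chaperones, ERAD factors and the translocation machinery. The pathway is best known from plasma cells, and activated T cells also draw on it as they make surface and secreted proteins.

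Depth was alike, with 18536339 reads from Thy1.1-negative cells and 18600581 from Thy1.1-positive cells, as recovered from the FPKM values. Each member rested on 32 to 17382 reads in Thy1.1-negative cells and on 47 to 18315 in Thy1.1-positive cells. Ratios are Thy1.1-negative over Thy1.1-positive, with 95% intervals that cover counting error only. Read numbers of 16 members are less certain, because their implied length did not match the annotation. For 8 of the 16, smaller whole numbers in the same ratio are also possible, and at the smallest of them the intervals of Hyou1, Syvn1 and Ssr2 would include 1. Of 10 CD4 T and Treg cell markers, all were expressed, with 7 above 0 and 3 below as deposited and 8 above and 2 below by the upper quartile of values above 0. Of all genes, 55.1% lay above 0 as deposited and 82.7% by the upper quartile, 1.15% were 2-fold lower and 3.08% past 2-fold in either direction. Il2ra, the interleukin-2 receptor α chain, was the 1 marker of the 10 past 2-fold, lower at 98.8 FPKM in Thy1.1-negative cells against 204.9 FPKM in Thy1.1-positive cells. Foxp3, the Treg transcription factor, stood at 158 against 237 FPKM, Ctla4 at 1156 against 1105 FPKM, Ikzf2 at 328 against 362 FPKM and Cd4 at 471 against 327 FPKM. Thy1, the gene of the surface protein that the sort marker is named after, ran against the labels, at 245.7 FPKM in the library labelled Thy1.1-negative and 153 FPKM in the one labelled Thy1.1-positive, a ratio of 1.60 (1.54 to 1.66). The sources used here do not give which allele or reporter carries Thy1.1 or whether its reads count towards this row, so the row does not check the labels, and every direction given here rests on the titles and on P and N in the column names being read as positive and negative. In a bulk sample, fewer cells of a type and less RNA per cell cannot be told apart.

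The Xbp1 stretch and the promoter motifs below are shown because they are what the sensors, or the transcription factors downstream of them, act on. The Xbp1 stretch comes from a GENCODE transcript (build GRCm38, chr11:5524264-5524319, plus strand, exon 4). Capitals mark the 26 bases between the cut points inside a pair of sites with the letters CNGCNGN, the form that IRE1 cuts. They are the known intron, and the pair is 1 of 2 so spaced in the whole transcript. A gene-level FPKM counts cut and uncut Xbp1 mRNA together.
Xbp1: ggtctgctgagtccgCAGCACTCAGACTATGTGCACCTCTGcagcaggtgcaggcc

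Promoters were taken from RefSeq (GRCm38.p6), which held 28 of the 36 members, each as 300 bases from 250 before the annotated start site to 50 after it. Both strands were searched for the ER stress response element (ERSE, CCAAT and CCACG with 9 free bases between them), which binds ATF6 and XBP1 together with NF-Y, for ERSE-II (ATTGG and CCACG with 1 free base between them), for the UPR element core TGACGTG, and for the core TGATGNAA of sites for ATF4 with C/EBP partners. No 2 matches in the members overlapped. ERSE was in 5 of the 28 member genes and in 0.119% of all 32851 promoters. ERSE-II was in 1 member, Herpud1, and in 0.0365% of promoters. The ATF4 core was in 4 members and in 3.97% of promoters, and the UPR element core was in 0 members and in 2.01% of promoters. Below, capitals mark ERSE, on either strand, in promoters of Calr (chr8:84847045-84847123, minus strand), Canx (chr11:50325770-50325848, minus strand), Pdia6 (chr12:17266461-17266539, plus strand), Creld2 (chr15:88819490-88819568, plus strand) and Syvn1 (chr19:6046502-6046575, plus strand).
Calr: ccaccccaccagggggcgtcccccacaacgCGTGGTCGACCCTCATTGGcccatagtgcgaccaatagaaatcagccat
Canx: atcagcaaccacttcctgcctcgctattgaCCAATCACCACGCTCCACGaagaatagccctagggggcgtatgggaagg
Pdia6: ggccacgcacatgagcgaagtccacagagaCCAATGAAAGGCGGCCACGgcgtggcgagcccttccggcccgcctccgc
Creld2: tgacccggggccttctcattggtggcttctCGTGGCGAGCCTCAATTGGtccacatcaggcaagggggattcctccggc
Syvn1: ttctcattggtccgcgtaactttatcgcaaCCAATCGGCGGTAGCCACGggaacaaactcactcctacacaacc

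In the next 3 stretches capitals mark the ATF4 core, and in Herpud1 (chr8:94386287-94386417, plus strand) also ERSE-II, nearer to the start. The others are Chac1 (chr2:119351019-119351086, plus strand) and Asns (chr6:7693210-7693262, minus strand). Trib3 had the ATF4 core after its start site, from base 15 to base 22.
Herpud1: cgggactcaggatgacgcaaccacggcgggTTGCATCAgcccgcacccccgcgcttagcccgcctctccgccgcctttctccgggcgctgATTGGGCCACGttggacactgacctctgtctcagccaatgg
Chac1: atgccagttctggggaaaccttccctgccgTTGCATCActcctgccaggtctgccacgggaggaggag
Asns: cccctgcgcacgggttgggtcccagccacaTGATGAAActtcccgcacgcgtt

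Levels of the members were close in both libraries. Of the 36 members, 0 were 2-fold higher and 0 were 2-fold lower in Thy1.1-negative cells, where 1.93% of all genes were higher, 1.15% lower and 3.08% either. At 1.5-fold, 1 member was higher, Atf6, and 0 were lower, against 5.81% of all genes higher, 3.85% lower and 9.66% either. At a smaller difference of 0.32, which is a ratio of 5 to 4, 2 members were higher, Atf6 and Sec61b, and 0 were lower, where 15.2% of all genes were higher, 10.7% lower and 25.9% either. As deposited, 23 of the 36 (63.9%) lay above 0 and 13 below, where 55.1% of all genes lay above 0. The median difference was 0.10 on the log2(FPKM + 1) scale, beside 0.03 for all genes. The summed level of the members was 3400 FPKM in Thy1.1-negative cells and 3326 FPKM in Thy1.1-positive cells, a ratio of 1.02. The upper quartile of values above 0 was 10.5 FPKM in Thy1.1-negative cells and 12.6 FPKM in Thy1.1-positive cells. It was taken over unequal numbers of genes above 0, 28107 and 25709. When libraries were scaled to the same upper quartile, the median of all genes moved up by 0.23. Then 34 of the 36 members lay above 0, where 82.7% of all genes did, and the members' median was 0.35, beside 0.26 for all genes. After the other 3 rescalings the median of all genes lay between -0.0055 and 0.020.

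**Figure D1:**
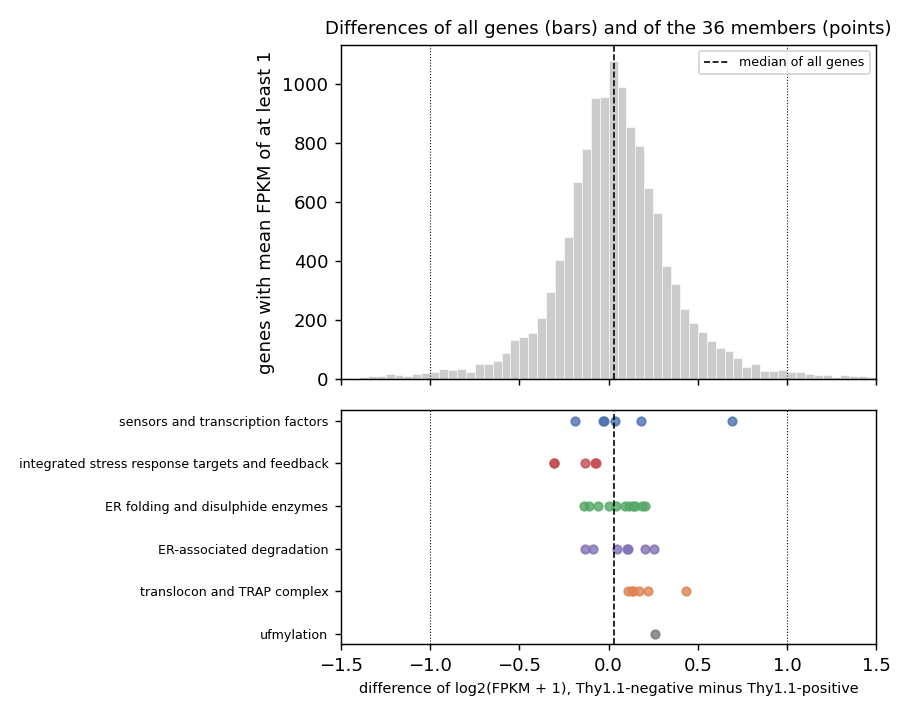
Upper panel, number of genes with a mean of at least 1 FPKM by difference of log2(FPKM + 1), Thy1.1-negative minus Thy1.1-positive, in bins of 0.05, with 119 genes beyond the axis. Lower panel, the 36 members by role, where dotted lines mark 2-fold and the dashed line the median of all genes at 0.03; no member reaches a dotted line, and Atf6 lies farthest right at 0.69.

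Members spanned more than 2 orders of magnitude in level. Calr, a calcium-binding chaperone of the ER lumen, was the most abundant, at 545 FPKM in Thy1.1-negative cells and 600.4 FPKM in Thy1.1-positive cells. Chac1, a glutathione-degrading enzyme induced through ATF4, was the least abundant, at 1.05 against 1.54 FPKM. In all, 30 members had a mean of at least 10 FPKM. A mean of at least 100 FPKM was reached by 9 members (25%), where 8.70% of all genes with a mean of at least 1 FPKM did so.

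**Figure D2:**
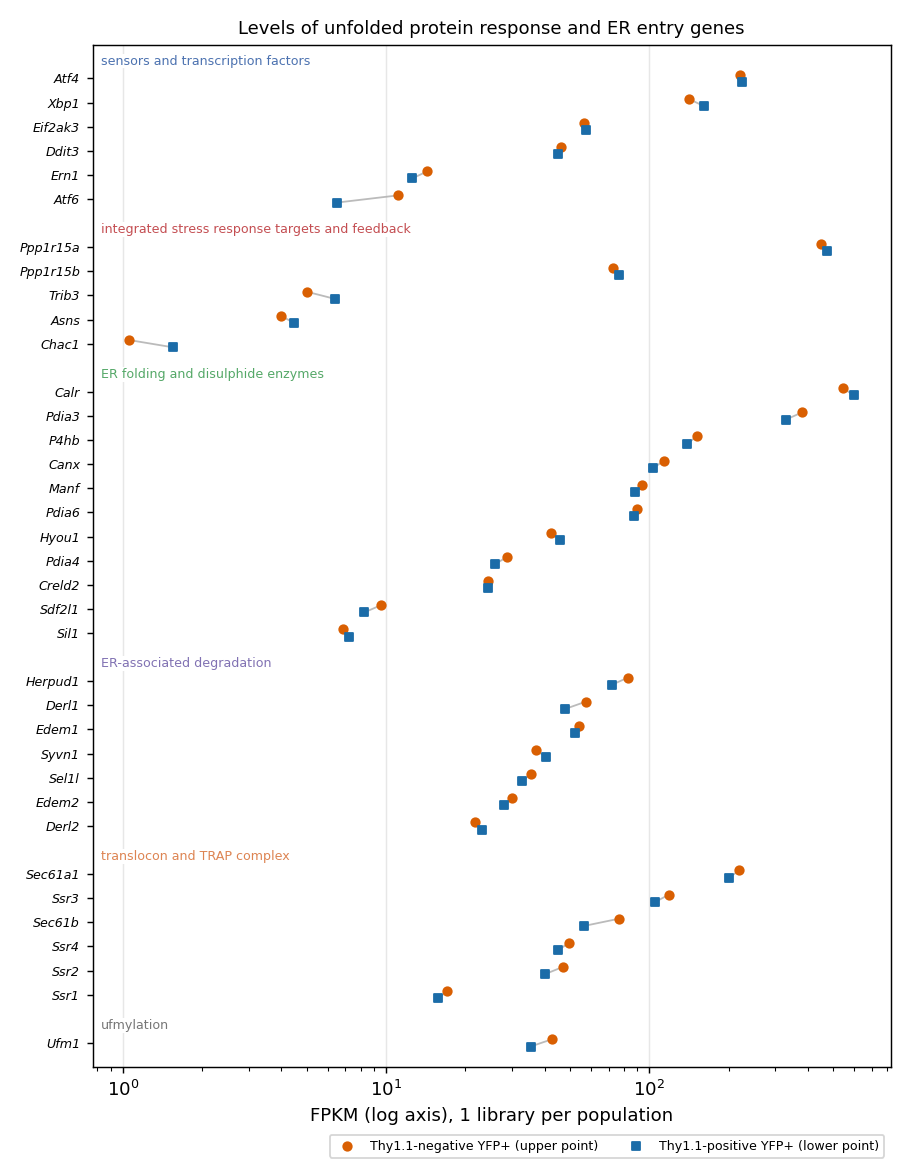
FPKM of each member in the Thy1.1-negative (upper, round points) and Thy1.1-positive library (lower, square points) on a log axis, 1 library each, grouped by role. Calr at 545 and 600.4 FPKM and Ppp1r15a at 449.7 and 472 FPKM are farthest right, and Chac1 at 1.05 and 1.54 FPKM is farthest left.

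The 6 sensors and transcription factors were split, with 3 above 0 and 3 below as deposited, where 55.1% of all genes lay above 0. Their median of 0.00 turned below 0 under 3 rescalings (the same FPKM sum, the median gene, and the sum without the 100 highest genes) and was 0.26 by the upper quartile. Atf6, the sensor that becomes a transcription factor when cut, differed most among all members, at 11.1 FPKM in Thy1.1-negative cells and 6.51 FPKM in Thy1.1-positive cells. That is a ratio of 1.71 (1.54 to 1.90), from 962 against 565 reads, and 95.9% of all genes had a lower difference. By the upper quartile its ratio was 2.04, still within 2-fold on the log2(FPKM + 1) scale at 0.92. The RNase sensor gene Ern1, which encodes IRE1α, stood at 14.4 FPKM in Thy1.1-negative cells and 12.6 FPKM in Thy1.1-positive cells, a ratio of 1.14 (1.03 to 1.27). Eif2ak3, which encodes PERK, was at 56.3 against 57.5 FPKM, and its interval of 0.923 to 1.04 included 1.

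The transcription factor genes of the IRE1 and PERK branches were abundant and differed little. Xbp1, the substrate of IRE1, stood at 141 FPKM in Thy1.1-negative cells and 161 FPKM in Thy1.1-positive cells, a ratio of 0.877 (0.837 to 0.919) that became 1.05 by the upper quartile. Atf4, which is controlled largely at translation, was at 221 against 225 FPKM, a ratio of 0.982 (0.9504 to 1.02). Ddit3, which encodes the pro-apoptotic factor CHOP, was at 46.3 against 45.1 FPKM, a ratio of 1.03 (0.922 to 1.14). The intervals of Atf4, Ddit3 and Eif2ak3 included 1, and that of Xbp1 lay below 1. Exons of Ddit3 overlap the opposite strand of Mars, an aminoacyl-tRNA synthetase gene at 22.9 against 23.6 FPKM, and the library kit is not stated to keep strand. Other members with exons opposite an expressed gene were Ppp1r15a (Tulp2, 5.31 against 6.30 FPKM), Derl2 (Mis12, 17.5 against 15.6 FPKM), Syvn1 (Mrpl49, 11.5 against 11.2 FPKM), Pdia3 (Catsper2) and Manf (Dcaf1, and Rbm15b on the same strand). How reads in such overlaps were counted, or whether they were left out, is not stated.

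The 5 stress targets and feedback genes all lay below 0 as deposited and after each rescaling but the upper quartile, by which 2 lay below 0 and 3 above. Of all genes, 55.1% lay above 0 as deposited, 82.7% by the upper quartile and 49.2% to 52.7% under the other rescalings. The median of the 5 genes was -0.13 as deposited and 0.08 by the upper quartile, that is -0.16 and -0.18 from the median of all genes. The eIF2α phosphatase subunits carried most of this group's level. Ppp1r15a, the stress-induced subunit GADD34, stood at 449.7 FPKM in Thy1.1-negative cells and 472 FPKM in Thy1.1-positive cells, a ratio of 0.952 (0.933 to 0.972). Ppp1r15b, the constitutive subunit CReP, stood at 72.8 against 76.8 FPKM, a ratio of 0.948 (0.916 to 0.982). The induced subunit was thus 6.17 times the level of the constitutive one in Thy1.1-negative cells and 6.15 times in Thy1.1-positive cells.

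The other 3 genes of this group, induced through ATF4 and CHOP, were low. Trib3, a pseudokinase, stood at 5.01 FPKM in Thy1.1-negative cells and 6.41 FPKM in Thy1.1-positive cells, a ratio of 0.780 (0.593 to 1.02). Asns, asparagine synthetase, was at 3.998 against 4.48 FPKM, a ratio of 0.893 (0.643 to 1.24). Chac1 had 32 reads against 47, a ratio of 0.683 (0.422 to 1.09). Their intervals all included 1, so no difference of any of the 3 was detectable at this depth. Among the 28 members whose promoters could be searched, these 3 and Herpud1 were the ones that held the ATF4 core near the start site. Ppp1r15b had no promoter entry and was not searched.

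Other ATF4 target genes, listed apart from the members, lay mostly above 0. Among all genes, 55.1% lay above 0 and 3.08% were past 2-fold in either direction. Of 18 with a mean of at least 1 FPKM, 14 lay above 0 and 4 below, none past 2-fold, with a median of 0.18 as deposited and 0.43 by the upper quartile. Psat1, an enzyme of serine synthesis, had the highest difference, at 38.4 FPKM in Thy1.1-negative cells and 24.1 FPKM in Thy1.1-positive cells. The amino acid transporter Slc7a5 had the lowest, at 75.6 against 114 FPKM. Atf3, a stress-induced transcription factor, stood at 42.7 against 40.7 FPKM, a ratio of 1.05 (0.964 to 1.14). Among the other eIF2α kinases and eIF2 or eIF2B subunits, 5 of 7 lay above 0 and none passed 2-fold. Eif2ak2, the interferon-inducible kinase PKR, was highest at 42.1 against 30.4 FPKM. Eif2ak4, the amino acid sensor GCN2, was lowest at 9.51 against 12.005 FPKM.

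**Figure D3:**
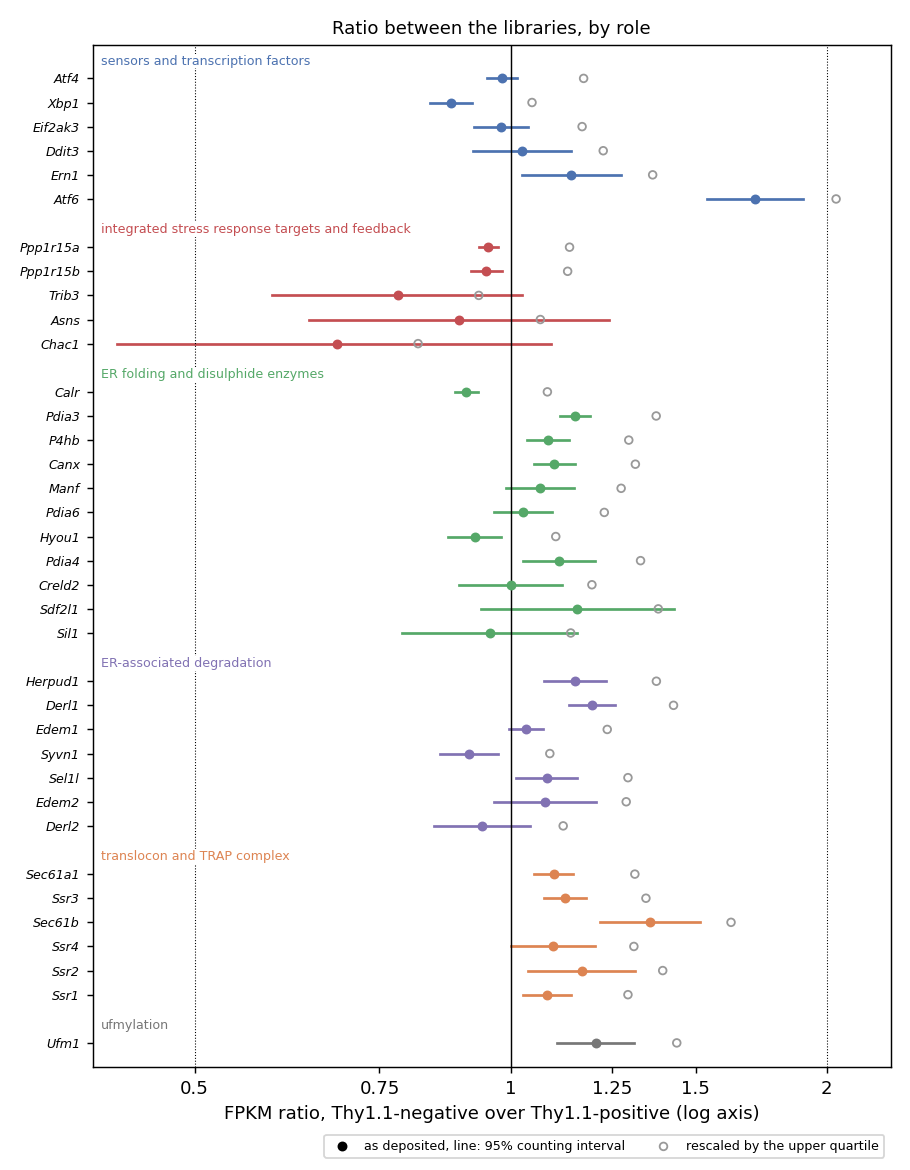
FPKM ratio of each member, Thy1.1-negative over Thy1.1-positive, on a log axis, with 95% counting intervals as lines, and open circles for the ratio after scaling to the same upper quartile. All translocon and TRAP points lie right of 1 and all stress target points left of 1 as deposited, whereas the open circles of all members but Trib3 and Chac1 lie right of 1. Of all genes with a mean of at least 1 FPKM, 55.1% were higher in Thy1.1-negative cells as deposited and 82.7% by the upper quartile.

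The 11 ER folding and disulphide genes had a median of 0.09 and ratios from 0.907 to 1.16, with 8 above 0 as deposited, 7 under the other 3 rescalings and 11 by the upper quartile. Of all genes, 55.1% lay above 0 as deposited, 49.2% to 52.7% under the other 3 rescalings and 82.7% by the upper quartile. Calr had a ratio of 0.907 (0.885 to 0.930), which was 1.08 by the upper quartile, whereas Canx, its membrane-bound relative in the same glycoprotein folding cycle, stood at 114 FPKM in Thy1.1-negative cells and 104 FPKM in Thy1.1-positive cells, a ratio of 1.1 (1.05 to 1.15). Calr was thus 4.78 times the level of Canx in Thy1.1-negative cells and 5.79 times in Thy1.1-positive cells. Pdia3, the disulphide isomerase that works with both, was at 381 against 330.5 FPKM, a ratio of 1.15 (1.12 to 1.19). The intervals of Canx and Pdia3 lay above 1 and that of Calr below it.

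The further disulphide isomerases differed by similar small amounts. P4hb, the classical protein disulphide isomerase, stood at 151 FPKM in Thy1.1-negative cells and 139 FPKM in Thy1.1-positive cells. Pdia4 was at 28.8 against 25.9 FPKM, a ratio of 1.11 (1.03 to 1.20). Pdia6 was at 90.1 against 87.7 FPKM, and its interval of 0.964 to 1.1 included 1. Hyou1, an Hsp70-related chaperone and exchange factor of BiP, lay the other way, at 42.4 against 45.9 FPKM, a ratio of 0.924 (0.872 to 0.979) that was 1.104 by the upper quartile. Sil1, another exchange factor of BiP, was at 6.87 against 7.20 FPKM.

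Among small secreted or luminal UPR targets, Manf, a secreted ER stress protein, stood at 94.0 FPKM in Thy1.1-negative cells and 88.2 FPKM in Thy1.1-positive cells. Creld2 was at 24.4 FPKM in both, from 618 against 620 reads. Sdf2l1, a luminal cofactor of BiP complexes, was at 9.54 against 8.25 FPKM, a ratio of 1.16 (0.937 to 1.43) that was the highest of the 11, from 196 against 170 reads. The intervals of these 3 genes and of Sil1 included 1. The 5 holders of ERSE also went both ways, with ratios of 0.907 for Calr, 0.912 for Syvn1, 1.0 for Creld2, 1.03 for Pdia6 and 1.1 for Canx.

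Other ER chaperones and oxidoreductases, listed apart from the members, also lay mostly above 0, where 55.1% of all genes did and 3.08% were past 2-fold. Hspa5, which encodes BiP, the main Hsp70 of the ER, stood at 1164 FPKM in Thy1.1-negative cells and 1199.8 FPKM in Thy1.1-positive cells, above the level of every member, with a ratio of 0.970 (0.954 to 0.987) that was 1.16 by the upper quartile. Hsp90b1, the ER-resident Hsp90, was at 136 against 129 FPKM, and Dnajb9, a BiP co-chaperone and XBP1 target, at 67.9 against 62.2 FPKM. Of 23 such genes with a mean of at least 1 FPKM, 20 lay above 0 and 3 below, none past 2-fold, with a median of 0.11. Txndc5, a disulphide isomerase, was highest at 22.9 against 17.4 FPKM and Mcfd2, a cargo receptor subunit, lowest at 16.6 against 20.4 FPKM. Among 5 genes of the ATF6 family and the proteases that cut it, 2 lay above 0 and 3 below as deposited, and 1 above and 4 below under 3 rescalings. By the upper quartile all 5 lay above 0, where 82.7% of all genes did. Their median was -0.04 as deposited and -0.08 both centred on the median gene and without the 100 highest genes. Mbtps2, the site-2 protease, was highest at 8.37 against 7.64 FPKM and Creb3l2 lowest at 26.2 against 30.5 FPKM.

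Of the 7 ERAD members, 5 lay above 0 and 2 below as deposited, and all 7 lay above 0 by the upper quartile, by which 82.7% of all genes did. Their median was 0.11. Derl1, a channel component of retrotranslocation, had the highest difference, at 57.3 FPKM in Thy1.1-negative cells and 47.9 FPKM in Thy1.1-positive cells, a ratio of 1.20 (1.14 to 1.26). Its paralogue Derl2 was at 21.7 against 23.1 FPKM, with an interval of 0.846 to 1.04, so the level of Derl1 over Derl2 was 2.64 in the Thy1.1-negative and 2.07 in Thy1.1-positive cells. Herpud1, a UPR-induced membrane scaffold, was at 82.9 against 71.97 FPKM, a ratio of 1.15 (1.08 to 1.23).

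The ubiquitin ligase Syvn1, also called HRD1, and its partner Sel1l lay on opposite sides of 1. Syvn1 stood at 36.9 FPKM in Thy1.1-negative cells and 40.5 FPKM in Thy1.1-positive cells, a ratio of 0.912 (0.856 to 0.972). Sel1l was at 35.5 against 32.8 FPKM, a ratio of 1.08 (1.01 to 1.16). By the upper quartile both ratios lay above 1, at 1.09 and 1.29. The mannosidase-like lectins Edem1, at 54.2 against 52.4 FPKM, and Edem2, at 30.1 against 27.9 FPKM, had intervals that included 1. Among 19 other ERAD genes, 12 lay above 0 and 7 below as deposited, where 55.1% of all genes lay above 0. By the upper quartile all 19 lay above 0, where 82.7% of all genes did. None was past 2-fold, and the median was 0.04 as deposited. Centred on the median gene, or scaled by the sum without the 100 highest genes, 10 lay above 0 and 9 below, with medians of 0.0062 and 0.0057. Sec24d, a vesicle coat subunit placed in that list, was highest at 5.96 against 4.45 FPKM.

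The 6 members of the Sec61 channel and of the translocon-associated protein (TRAP) complex were all above 0, as deposited and under all 4 rescalings. Of all genes, 55.1% lay above 0 as deposited, 82.7% by the upper quartile and 49.2% to 52.7% under the other rescalings. As deposited, the median of the 6 members was 0.15. Their summed level was 528.6 FPKM in Thy1.1-negative cells and 463 FPKM in Thy1.1-positive cells. Their 6 intervals as deposited all lay above 1, except that of Ssr2 at its smallest possible reads. Such intervals were narrow at this depth: of all 36 members, 16 had an interval above 1 and 6 below 1. The share of all genes whose interval leaves out 1 was not computed, so the count for these 6 members has no background. The intervals were not rescaled, and that of Ssr4 began at 1.0005, so a slight shift in scale would bring in 1. Sec61a1, the pore subunit, stood at 219.8 FPKM in Thy1.1-negative cells and 199.99 FPKM in Thy1.1-positive cells, a ratio of 1.099 (1.05 to 1.15). Sec61b, a small channel subunit, stood at 76.6 against 56.5 FPKM, a ratio of 1.36 (1.22 to 1.52), and 90.2% of all genes had a lower difference. The level of Sec61a1 over Sec61b was 2.87 in Thy1.1-negative cells and 3.54 in Thy1.1-positive cells.

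The TRAP subunits, which sit beside the channel and assist some signal sequences, had ratios within a narrow range. Ssr1 stood at 17.1 FPKM in Thy1.1-negative cells and 15.8 FPKM in Thy1.1-positive cells, a ratio of 1.08 (1.03 to 1.14). Ssr2 was at 46.9 against 40.1 FPKM, a ratio of 1.17 (1.04 to 1.31). Ssr3 was at 119 against 105 FPKM, a ratio of 1.13 (1.07 to 1.18). Ssr4 was at 49.5 against 45.1 FPKM, a ratio of 1.097 (1.0005 to 1.20). The level of Ssr3 was 6.95 times that of Ssr1 in Thy1.1-negative cells and 6.68 times in Thy1.1-positive cells. Their reads were closer, at 3795 against 2946 in Thy1.1-negative cells and 3382 against 2731 in Thy1.1-positive cells. The implied lengths were 1724 bases for Ssr3 and 9306 for Ssr1, and that of Ssr1 did not match the annotation.

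Genes that act at the same step, listed apart from the members, lay mostly above 0 as well, where 55.1% of all genes did. Of 18 translocation, signal peptidase and signal recognition particle genes with a mean of at least 1 FPKM, 14 lay above 0 and 4 below, none past 2-fold, with a median of 0.10. Sec11c, a catalytic subunit of signal peptidase, was highest at 138 FPKM in Thy1.1-negative cells and 90.6 FPKM in Thy1.1-positive cells, a ratio of 1.53 (1.43 to 1.63). Tram2 was lowest at 8.22 against 9.47 FPKM. Of 10 oligosaccharyltransferase genes, 8 lay above 0, with a median of 0.08. Magt1 was highest at 12.6 against 9.16 FPKM and the catalytic subunit gene Stt3b lowest at 29.9 against 31.8 FPKM.

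Ufm1, a ubiquitin-like protein attached to ribosomes at the ER, stood at 42.6 FPKM in Thy1.1-negative cells and 35.4 FPKM in Thy1.1-positive cells, a ratio of 1.20 (1.11 to 1.31). Of 6 further genes of its conjugation and removal with a mean of at least 1 FPKM, 5 lay above 0 and 1 below, none past 2-fold, with a median of 0.27. Ufsp2, the protease that removes Ufm1, was highest at 10.5 against 7.16 FPKM, and Ddrgk1, an adaptor of the ligase, lowest at 90.8 against 97.4 FPKM. Over all 106 other pathway genes with a mean of at least 1 FPKM, 80 lay above 0 and 26 below. As deposited, 55.1% of all genes lay above 0. In either direction 0 of the 106 were past 2-fold, where 3.08% of all genes were. The median of the 106 was 0.09, beside 0.03 for all genes. By the upper quartile 102 of the 106 lay above 0, where 82.7% of all genes did, all but Slc7a5, Eif2ak4, Mcfd2 and Shmt2, the last being named after its value was seen.

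**Figure D4:**
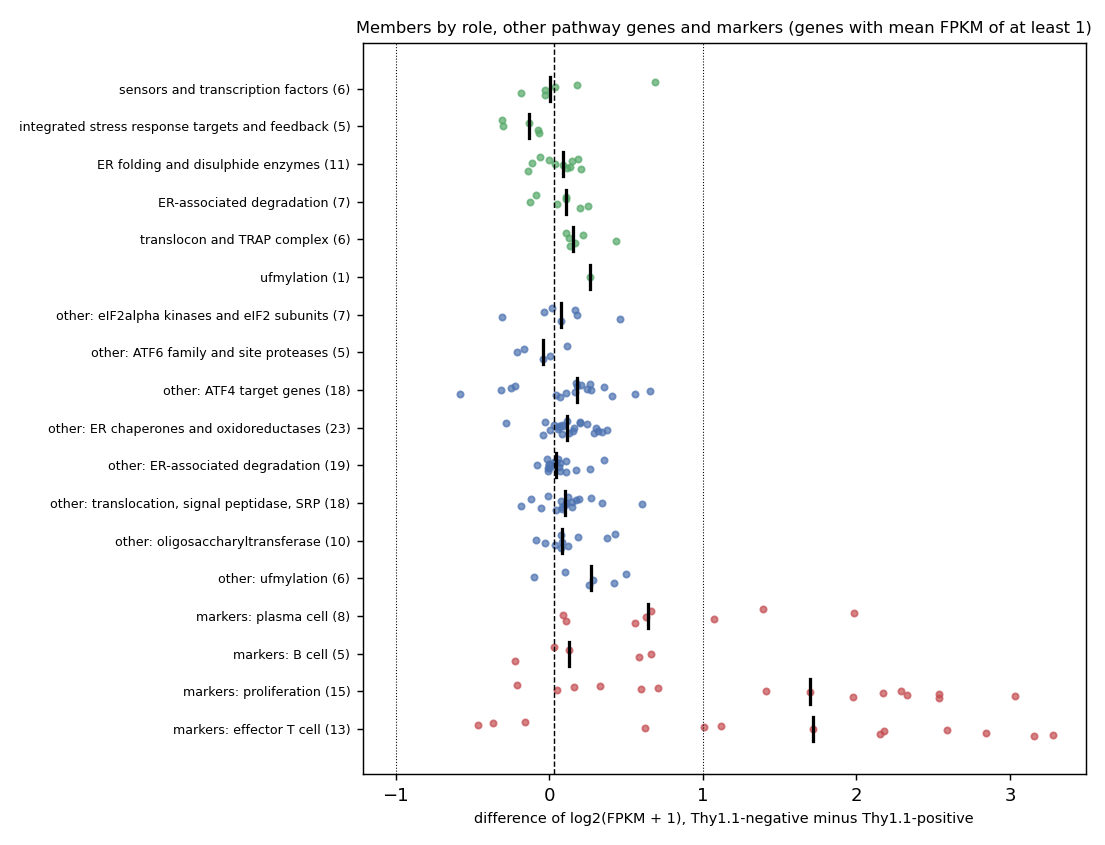
Difference of log2(FPKM + 1), Thy1.1-negative minus Thy1.1-positive, of each gene with a mean of at least 1 FPKM, by member role, other pathway list and marker list, with the number of genes in brackets, a black bar at each median, dotted lines at 2-fold and a dashed line at the median of all genes. Bars of the member roles run from -0.13 to 0.26, and those of the proliferation and effector markers lie at 1.70 and 1.71.

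Markers of other cells and states were read in the same libraries. Among all genes, 1.93% were 2-fold higher in Thy1.1-negative cells and 1.15% 2-fold lower. Of 15 proliferation markers, 9 were 2-fold higher and 0 were 2-fold lower, with a median of 1.70. As deposited, 14 lay above 0 and 1 below. Mki67 stood at 13.5 against 1.49 FPKM, and Tk1, the 1 below, at 24.6 against 28.6 FPKM. Of 13 effector T cell markers, 9 were 2-fold higher and 0 were 2-fold lower, with a median of 1.71. As deposited, 10 lay above 0 and 3 below. Cxcr3, at the median, stood at 44.3 against 12.8 FPKM. The 3 below were Tnfrsf4 (317 against 437 FPKM), Tnfrsf18 (89.4 against 116 FPKM) and Itgae (35.4 against 39.6 FPKM). Of 12 plasma cell markers, 8 had a mean of at least 1 FPKM and 3 of these were 2-fold higher, Pou2af1, Igkc and Prdm1. The summed level of that list was 498 FPKM in Thy1.1-negative cells and 302 FPKM in Thy1.1-positive cells, of which Ighm made up 409 and 258 FPKM. Among further genes of the list, Sdc1, the plasma cell surface marker CD138, stood at 3.51 against 2.06 FPKM, a ratio of 1.70 (1.21 to 2.41), and Irf4, which activated T cells also express, at 27.4 against 17.3 FPKM. Derl3 and Fkbp11 stood at 1.82 and 1.48 FPKM in Thy1.1-negative cells and at 1.61 and 1.32 FPKM in Thy1.1-positive cells. Of the 4 genes under 1 FPKM in both libraries, Eaf2 had 17 against 13 reads. The others, Jchain, Mzb1 and Tnfrsf17, were at 18, 3 and 1 reads in Thy1.1-negative cells and 32, 4 and 2 reads in Thy1.1-positive cells. The 13 B cell markers summed to 60.6 against 56.5 FPKM, of which Cd74 made up 46.8 and 45.8 FPKM. Under 1 FPKM in both libraries were 8 of the 13, with Ms4a1, which encodes CD20, at 5 reads against 4 reads. Of the 5 with a mean of at least 1 FPKM, 4 lay above 0 and 1 below, none past 2-fold. Cd79b stood at 6.45 against 3.97 FPKM, H2-Aa at 1.52 against 0.592 FPKM and Cd79a at 1.63 against 2.07 FPKM. The other lists summed to 72.9 against 55.5 FPKM for 14 myeloid and dendritic markers, to 21.6 against 20.5 FPKM for 7 CD8 and natural killer markers and to 87.5 against 64.7 FPKM for 7 stromal and endothelial markers. Cst3 made up 63.5 and 50.1 FPKM of the myeloid sums, and Pecam1, which T cells can also express, 84.8 and 63.5 FPKM of the stromal sums. Itgam, the integrin CD11b, was 2-fold higher, at 4.17 against 0.272 FPKM from 229 against 15 reads, and so was Klrb1c, the natural killer receptor NK1.1, at 2.08 against 0.445 FPKM. Col1a1, a collagen, was at 1.73 against 0.694 FPKM, short of 2-fold on the log2(FPKM + 1) scale. Of those 3 lists 11, 3 and 5 genes were under 1 FPKM in both libraries. The part of proliferating, effector or other cells in the members' differences was not tested.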

How the data were processed

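RNA-seq was compared between 1 Thy1.1-negative YFP+ and 1 Thy1.1-positive YFP+ library. Per the labels' protocols, CD4 cells were bead-enriched before sorting, sort purity was usually over 97%, and 3 µg of total RNA went into each NEBNext Ultra library. The table the authors deposited gives FPKM by Ensembl gene, and a P or N in its column names was taken to mean Thy1.1-positive or Thy1.1-negative. Bowtie2 2.2.3, TopHat2 2.0.12, HTSeq 0.6.1 and build mm9 are named in the submitters' processing notes, without settings. Symbols and lengths came from GENCODE M21, which gave a symbol for 96.8% of IDs.

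FPKM is not a count, and no count model was used. Reads could be recovered: for all 23442 genes above 0 in each library, the ratio of FPKM values, once divided by the ratio of library totals, was a ratio of whole numbers within 2e-12. The totals, and each gene's multiple of its smallest whole numbers, rest on the mean annotated transcript length, which was matched within 1 base for 20 of 36 members. The level of 1 gene over another also depends on the length used for each. Recovered reads made up 98.3% of the total in Thy1.1-negative and 98.2% in Thy1.1-positive cells. The 95% Clopper-Pearson interval of the Thy1.1-negative share of reads was turned into that of the ratio. They cover counting error only, since reads are not independent molecules and animals, sorts and preparations vary. The steps were checked on simulated libraries. These were made with the same annotated lengths that served to recover them. The choice of the multiple at an unmatched length was thus not checked.

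Genes with a mean of at least 1 FPKM were compared on log2(FPKM + 1), which understates the change of low genes. All members are named. Of each other pathway list the highest and lowest gene are named, and Hspa5, Hsp90b1, Dnajb9 and Atf3, except for 1 gene that is not reported here. The members and lists were chosen with earlier results of these data known. Analysis used Python 3.11.15, pandas 2.3.3, numpy 2.4.6 and scipy 1.17.1.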

Additional observations from a re-analysis of the deposited data

How the results depend on the processing

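The counts of members past 2-fold were 0 higher and 0 lower with pseudocounts of 0.1 and 5, with no filter, with a mean of at least 5 FPKM and under all 4 rescalings. Lower fold rules gave 1 higher member at 1.5-fold and 2 at a difference of 0.32. The members' median of 0.10 lay between 0.06 and 0.11 under the settings other than the upper quartile, by which it was 0.35 (all genes 0.26). One of these settings, leaving out the 13 members whose exons overlap another annotated gene, was chosen after the data were seen and gave 0.11. By the upper quartile the sign turned for 6 members whose interval left out 1, with differences of 0.067 for Xbp1, 0.12 for Calr, 0.14 for Hyou1, 0.12 for Syvn1, 0.19 for Ppp1r15a and 0.18 for Ppp1r15b, and for 5 whose interval included 1. By the upper quartile the medians also turned for stress targets (0.076) and for the ATF6 family and its proteases (0.21). The median of sensors and transcription factors became -0.0061 with the same FPKM sum, -0.030 centred on the median gene and -0.031 without the 100 highest genes. List medians under these settings, and intervals at the smallest possible reads, were also chosen after the data were seen. No paired analysis was possible because each population has 1 library, and none could be left out. Low reads limit Chac1, Asns and Trib3 most.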
